A study of Homo sapiens with 8 samples.

Results

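The TRIM genes form one of the largest families of RING-type ubiquitin ligases, enzymes that attach ubiquitin to other proteins and so mark them for degradation or change their signalling. Their transcripts were followed in the human pancreatic cancer line Panc10.05 and in an indisulam-resistant line raised from it. Members were chosen by name and by reads. They were the protein-coding genes of GENCODE release 44 whose symbol is TRIM followed by a number, with at least 10 reads summed over the 8 libraries. The rule took 49 of the 77 protein-coding TRIM genes of that annotation, out of 60675 genes listed in the files. Since the reads themselves chose the members, the fact that a member is expressed is no result.

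RNA sequencing had been done on 4 groups of 2 libraries. Parental cells were left untreated or given 2 µM indisulam for 18 h. Resistant cells had been grown out of Panc10.05 under increasing drug. They were either kept on 2 µM indisulam without a break or given a drug holiday of 1 week, the group called resistant untreated. The treatment of the resistant line is therefore continuous exposure against withdrawal, and the treatment of the parental line is a short first exposure. Indisulam binds the DCAF15 ubiquitin ligase to the splicing factor RBM39, which is then degraded. The labels conflict on the cells, with A549 in their culture notes but Panc10.05 in titles, and Panc10.05 was taken. The resistant line is 1 derivative, and the study calls its paired libraries technical replicates, so p-values measure the spread between these libraries only.

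The libraries held 65266253 to 108002436 reads in genes, and the members took 0.282 to 0.313% of them. That share was highest in the resistant untreated libraries, at 0.309% and 0.313%. No molecular identifiers are described, so reads cannot be taken for separate molecules and depth bounds counting error only. Markers of cell types were read. All 6 ductal epithelial markers were expressed, with a summed level between 6324 and 12229 CPM (reads of a gene per 1000000 reads in genes, scaled by TMM) per library. These are genes of epithelial cells in general, so they cannot tell the names A549 and Panc10.05 apart. The 4 acinar markers together stayed at or under 0.0462 CPM. Of the leukocyte markers, PTPRC and CD3E had 0 reads in every library and CD14 had 6 to 28 reads per library. Of the fibroblast markers, DCN and LUM had 0 reads and PDGFRB 1 to 4 per library. The 3 endothelial markers summed to 0.181 to 0.341 CPM, mostly VWF with 13 to 33 reads per library.

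A typical TRIM protein has a RING domain that recruits the ubiquitin-conjugating enzyme, followed by 1 or more B-boxes. Then come a coiled coil that pairs the molecules and a C-terminal part that binds the substrate. Not every member has all of these parts, the RING included. Most members end in a PRY-SPRY domain, others in an NHL propeller or in a PHD finger with a bromodomain that reads histones. Several PRY-SPRY members are induced by interferon and act in antiviral defence. TRIM5 blocks retroviral capsids, TRIM21 is a cytosolic antibody receptor, TRIM25 ubiquitinates the RNA sensor RIG-I, and TRIM22 restrains the transcription of several viruses. Interferon acts on such genes through elements in their promoters to which the factors of the IRF and STAT families bind.

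Because interferon-linked members showed the largest falls in resistant cells with the drug, their promoters are shown. RefSeq windows of 300 bases (250 before to 50 after a gene's start, GRCh38.p14) were found for 38 of the 49 members, and for 10 of the 11 interferon-linked ones, TRIM22 being the exception. The windows were searched on both strands for GAAA followed, after any 2 bases, by a second GAAA, the core of the element that IRF factors bind. It lay in the windows of 6 of the 10 interferon-linked members and of 3 of the 28 other members (TRIM2, TRIM16 and TRIM44). Counted per gene, 4.38% of the 27305 genes with a window held it. Windows of 1 gene can overlap, and counted per window the share was 3.57% of 35116. The capitals mark the matched letters, each sequence runs 5′ to 3′ on the gene's own strand, and a pair of TTTC is the same element read on the other strand. In TRIM21 and TRIM26 a pair of matches overlaps. In TRIM21 they lie just after the annotated start, and in the other 5 genes before it.
TRIM21 (chr11:4393653-4393710, minus strand): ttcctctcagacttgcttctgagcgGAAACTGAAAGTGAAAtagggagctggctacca
TRIM14 (chr9:98119214-98119273, minus strand): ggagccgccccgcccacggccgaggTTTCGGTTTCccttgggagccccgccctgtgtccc
TRIM5 (chr11:5685067-5685126, minus strand): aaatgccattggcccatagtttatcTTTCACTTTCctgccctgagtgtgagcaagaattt
TRIM34 (chr11:5624886-5624945, plus strand): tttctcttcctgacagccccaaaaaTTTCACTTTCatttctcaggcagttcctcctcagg
TRIM69 (chr15:44736441-44736500, plus strand): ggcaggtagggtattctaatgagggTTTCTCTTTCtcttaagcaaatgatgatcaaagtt
TRIM26 (chr6:30213560-30213625, minus strand): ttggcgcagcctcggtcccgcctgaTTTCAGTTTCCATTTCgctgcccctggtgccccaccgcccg
A second pattern, TTC and GAA around any 3 bases, the core of the element that STAT dimers bind, reads the same on both strands. It lay in none of the 10 interferon-linked windows, in those of 6 of the 28 other members (TRIM2, TRIM3, TRIM7, TRIM15, TRIM16 and TRIM46) and in those of 9.38% of all genes. A match is a description of letters and not a bound site. The list and both patterns were chosen with earlier results of these data known, so these counts are no independent evidence. Whether the matches have a part in the falls was not tested.

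To compare levels between genes, CPM was divided by the length of a gene's merged exons in kilobases. TRIM28, the corepressor that zinc-finger repressors recruit to silence transposable elements, stood far above the rest at a mean of 151 CPM per kb over the 8 libraries. It was 3.4 times TRIM8 (44.3 CPM per kb), the next member. TRIM47 followed at 30.2, TRIM44 at 24.1 and TRIM33, a ligase of the SMAD pathway, at 19.6 CPM per kb. The median member had 4.02 CPM per kb. In reads, TRIM28 alone held 22.2% of all reads of the members. TRIM28 lies on chr19:58544064-58550722. Its level was 639 and 629 CPM in untreated parental, 695 and 672 CPM in treated parental, 643 and 657 CPM in untreated resistant and 639 and 613 CPM in treated resistant libraries. TRIM28 and TRIM8 held the first ranks in all 4 groups, and the ranks after them changed between groups. TRIM44 at 25.5 stood above TRIM47 at 24.3 CPM per kb in parental indisulam cells, and TRIM65 at 21.4 just above TRIM33 at 20.9 CPM per kb in parental untreated cells. In resistant untreated cells TRIM14 at 31.3 CPM per kb followed TRIM47, ahead of TRIM25 at 24.5 and TRIM44 at 24.4 CPM per kb.

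**Figure D1:**
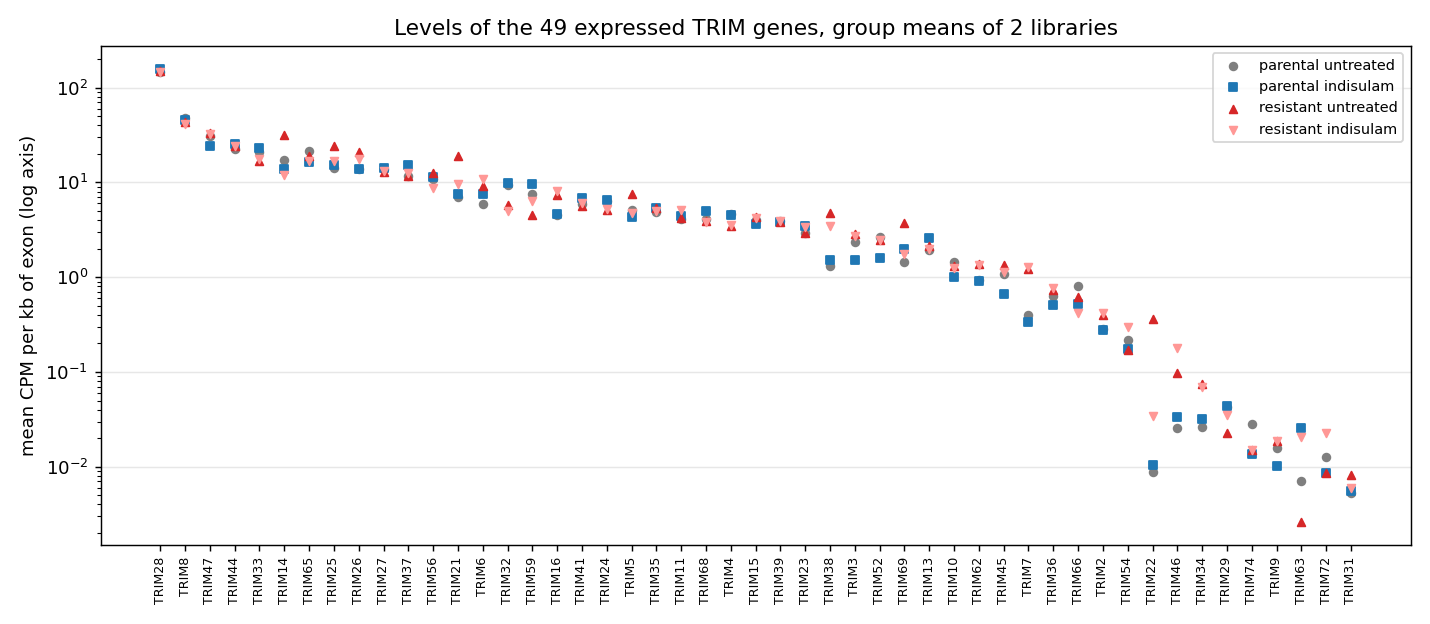
Mean CPM per kilobase of exon (log axis) of the 49 members, as group means of 2 libraries, ordered by the mean over all libraries. TRIM28 at 151 leads TRIM8 at 44.3, and the symbols of TRIM22 are the most widely spread, from 0.00885 in parental untreated to 0.366 in resistant untreated cells.

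A mean of 1 CPM was reached by 40 members and missed by 9. The lowest members that entered the rule were TRIM31 with 15 reads, TRIM74 with 18 and TRIM63 with 24, and the highest that stayed out were TRIM55 with 9, TRIM73 with 7 and TRIM67 with 6. Of the 28 genes under the rule, 20 had 0 reads in all 8 libraries, which allows each a level of up to 0.00447 CPM (3 reads over 670433413), for counting error only. TRIM71, an NHL member of early embryos and germ cells, had 2 reads. TRIM73 and TRIM74 are near-identical copies, and reads that align equally well to both were left out by the counting. The filter on low counts kept 46 of the 49 members for testing, all but TRIM31, TRIM63 and TRIM74. TRIM72 reached the filter's level only in the resistant indisulam libraries. TRIM9, TRIM22 and TRIM34 did not reach it in enough parental libraries and were kept through resistant ones. For these members a higher level in those libraries is partly set by the filter.

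The first exposure of parental cells to indisulam moved many members, each by little. In bulk RNA, fewer cells that express a gene and less RNA of it per cell cannot be told apart. With the drug 15 members were higher and 13 lower (edgeR quasi-likelihood test, Benjamini-Hochberg adjusted p under 0.05), 60.9% of the 46 tested, and none changed by more than 1 on the log2 scale. Of all 16661 genes tested, 58.2% were called, 31.6% higher and 26.6% lower, so the members' share was near the background. The median log2 fold change was 0.05 over the members and 0.01 over all genes. Of the 11 interferon-linked members 4 rose (TRIM6, TRIM25, TRIM38 and TRIM69), 2 fell (TRIM5 and TRIM14) and 5 did not pass, with a median of 0.12. The call of TRIM25 was lost with library totals alone (log2 fold change 0.056, edgeR adjusted p = 0.0817). The other 35 split evenly, 11 higher and 11 lower, with a median of −0.03. Scaled by library totals alone the members' split was 11 higher and 14 lower, and among all calls the share of higher ones was 42% in place of 54.3%.

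The largest falls were in genes outside the interferon-linked list. TRIM52, a gene of chromosome 5 that was expressed at 18.1 and 18.2 CPM in untreated and at 11.3 and 10.5 CPM in treated parental cells, fell by 0.73 on the log2 scale (SE 0.07, adjusted p = 2.48e-07). Across from it lies the antisense long noncoding RNA CTC-338M12.4, with 36.5% of the pair's reads, and this RNA fell by 1.33. The strand setting of the counting is not given in the sources used here, so reads of such pairs may not be separable. TRIM45, a repressor of MAP kinase signalling, went from 4.81 and 4.55 CPM to 2.8 and 2.98 CPM, a fall of 0.69 (SE 0.09). TRIM66, a PHD and bromodomain protein, went from 13.2 and 13.5 CPM to 8.22 and 8.7 CPM and fell by 0.66 (SE 0.06). TRIM3, an NHL member, fell by 0.61 (SE 0.05) from 15.6 and 15.7 CPM to 10.3 CPM in both treated libraries. TRIM10, first described in red cell maturation, fell by 0.53 (SE 0.08). In all 5 genes the treated libraries lay below both untreated ones, which nearly follows from their choice as the largest called falls.

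TRIM69, which is also interferon-linked, went from 13.9 and 13.1 CPM to 17.7 and 19.2 CPM, a rise of 0.45 on the log2 scale (SE 0.05, adjusted p = 5.45e-08). TRIM13, a ligase of the endoplasmic reticulum, rose by 0.44 (SE 0.04) from 16.1 and 15.1 CPM to 21 and 21.2 CPM. Its opposite-strand neighbour, the long noncoding RNA DLEU2, held 23.2% of the reads of the pair and fell by 1.05. TRIM37, a ligase mutated in mulibrey nanism, rose by 0.39 (SE 0.03) and TRIM6 by 0.34 (SE 0.04). TRIM59 rose by 0.34 (SE 0.03), while its opposite-strand neighbour SMC4, which took 89.6% of the reads of that pair, rose by 0.10.

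In resistant cells, continuous drug against withdrawal, the largest falls were in interferon-linked members. For this line a fall or rise means the drug group compared with the holiday group, and not an order in time. The drug group was higher in 11 members and lower in 14, 54.3% of those tested, against 50.7% of all genes (24.9% higher and 25.8% lower). Library totals alone gave 13 higher and 12 lower, with 59.7% of all calls higher in place of 49.1%. More than 1 on the log2 scale was reached by 4 members, the falling TRIM22, TRIM14 and TRIM69 and the nearly silent TRIM72, which rose. TRIM72 was tested only because of its reads in this drug group, so its rise is no finding. Of the 11 interferon-linked members 9 fell, TRIM6 rose and TRIM34 did not pass the test. The median over the list was −0.55, beside −0.02 over all members and 0.01 over all genes. Of the 35 other members tested, 10 rose and 5 fell, with a median of 0.03. This list was drawn up with earlier results of these data known, so its direction is no independent evidence.

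TRIM22 moved most, as the following values show. It lies on chr11:5689610-5737089, within the annotated span of TRIM5 on the other strand. Its reads were 11 and 13 in untreated parental, 13 and 7 in treated parental, 342 and 297 in untreated resistant and 24 and 49 in treated resistant libraries. In CPM these were 0.1 and 0.122, 0.173 and 0.0904, 4.62 and 4.57, and 0.356 and 0.51. The resistant untreated libraries stood above all others, the resistant indisulam libraries lay between, and the parental groups overlapped. On the drug TRIM22 fell by 3.37 on the log2 scale in resistant cells (SE 0.16, adjusted p = 3.14e-14), which is 10.3-fold. In parental cells the change was 0.24 (SE 0.42, adjusted p = 0.656). TRIM5 took 96.2% of the reads of the pair, though no exons of the pair overlap.

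TRIM14, an adaptor of antiviral signalling at mitochondria, was expressed at 94.2 and 95.1 CPM in untreated parental, 75.6 and 77.3 CPM in treated parental, 172 and 171 CPM in untreated resistant and 65.7 and 64.3 CPM in treated resistant libraries. No groups overlapped, and the drug group of the resistant line was the lowest of the 4. The fall in resistant cells was 1.40 (SE 0.03, adjusted p = 4.54e-21) and in parental cells 0.31 (SE 0.03). TRIM14 shares exonic sequence with NANS on the opposite strand, and NANS held 45.3% of the reads of the pair. NANS moved less in these contrasts, falling by 0.20 in resistant and by 0.11 in parental cells. Off the drug NANS was lower in resistant cells by 1.02 on the log2 scale, whereas TRIM14 was higher there.

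TRIM69 was at 35.7 and 34.2 CPM in untreated resistant and at 15.9 and 16.6 CPM in treated resistant libraries. It fell by 1.10 (SE 0.05) there, whereas it had risen in the parental line. TRIM21 was at 14.1 and 13.1 CPM in untreated parental, 14.7 and 14.4 CPM in treated parental, 37.1 and 36.1 CPM in untreated resistant and 18.6 and 18.4 CPM in treated resistant libraries. It fell by 0.98 (SE 0.04) in resistant cells, and its parental change of 0.10 (SE 0.05, adjusted p = 0.0743) did not pass. TRIM5 fell by 0.66 (SE 0.04), TRIM25 by 0.55 (SE 0.03), TRIM56 by 0.50 (SE 0.03), TRIM38 by 0.45 (SE 0.04) and TRIM26 by 0.24 (SE 0.03). TRIM25 is widely expressed and went from 308 and 300 CPM to 208 and 207 CPM. TRIM6, which makes unanchored ubiquitin chains in interferon signalling, went the other way and rose by 0.26 (SE 0.04), from 37.4 and 34.6 CPM to 42.9 and 43.4 CPM. TRIM34 is nearly silent, with 3 to 23 reads per library. TRIM6 and TRIM34 also share exons with a readthrough gene listed at 0 in every library, so reads in those exons may have been counted as ambiguous and these 2 counts may be partial.

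**Figure D2:**
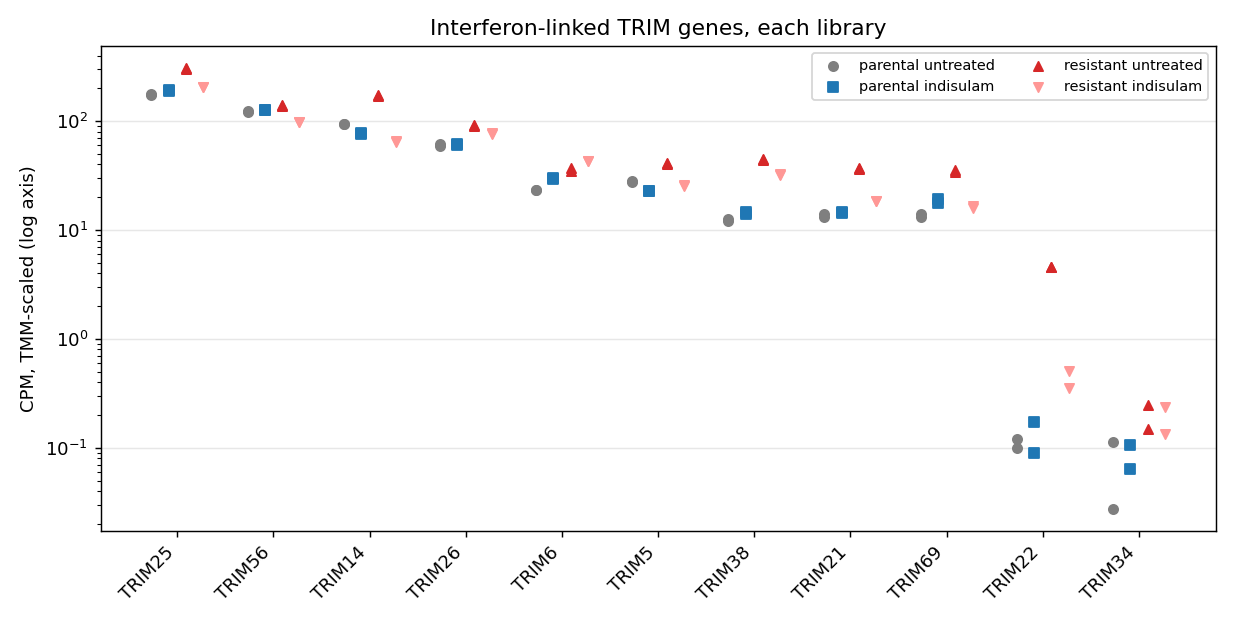
CPM (log axis) of the 11 interferon-linked members in each of the 8 libraries, ordered by mean level. For every gene but TRIM6 and TRIM34 both resistant untreated libraries (red triangles) lie above the other 6, most widely for TRIM22 at 4.62 and 4.57 CPM. The list was drawn up with earlier results of these data known. How many of all genes have this order was not counted, and 30.3% of them were called higher in resistant untreated than in parental untreated cells.

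Among the members outside the interferon list, TRIM59 rose by 0.51 (SE 0.04), TRIM11 by 0.31 (SE 0.05), TRIM23 by 0.23 (SE 0.05) and TRIM16 by 0.16 (SE 0.04). TRIM23 overlaps TRAPPC13, with 64.2% of the reads of both genes, which did not pass the test. It also overlaps SHLD3, with 13.65% of the reads of that pair, and SHLD3 fell by 0.58. SMC4 opposite TRIM59 rose by 0.30. TRIM66 fell by 0.57 (SE 0.06), from 9.65 and 10.7 CPM to 6.79 and 6.93 CPM. TRIM52 and TRIM3, which had fallen in parental cells, did not pass here. TRIM52 was at 15.3 and 18.4 CPM off and at 17.3 and 16.5 CPM on the drug, and TRIM3 at 18.4 and 19.9 CPM off and at 18.6 and 18 CPM on it.

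Whether the responses of the lines differ was tested as the difference of the responses (resistant minus parental). It was called higher in 12 members and lower in 16, 60.9% of the 46, against 50.1% of all genes (22.7% higher and 27.5% lower). Of the 11 interferon-linked members 9 had a lower response in the resistant line and none a higher one, with a median difference of −0.67. TRIM6 and TRIM34 did not pass. The same 2 resistant untreated libraries enter this comparison, the resistant response and the lines off the drug. High values in these libraries would move all of these results together, so they are not independent findings. The difference was −3.60 for TRIM22 (SE 0.50, adjusted p = 2.89e-06), −1.55 for TRIM69 (SE 0.07), −1.09 for TRIM14 (SE 0.04), −1.08 for TRIM21 (SE 0.07) and −0.67 for TRIM25 (SE 0.04). Of the other 35 members, 12 had a higher and 7 a lower response in the resistant line, with a median of 0.10. TRIM52 (0.74, SE 0.10), TRIM3 (0.54, SE 0.07), TRIM45 (0.46, SE 0.12), TRIM10 (0.45, SE 0.12) and TRIM36 (0.41, SE 0.13) led those called higher with a mean of at least 1 CPM. The call of TRIM36 was lost with DESeq2 (adjusted p = 0.0788) and without parental indisulam replicate 2 or resistant untreated replicate 2 (0.0589 and 0.0609). All 5 had fallen in parental cells. In resistant cells TRIM45 fell by 0.24 (SE 0.08), a call lost with library totals alone (edgeR, adjusted p = 0.0534), with DESeq2 (0.0949) and without any of 3 libraries of that line (resistant untreated replicate 2 and each resistant indisulam replicate, 0.061 to 0.0724), and the other 4 did not pass. With library totals alone the median of all genes moved by 0.115 in this comparison, 65.8% of all calls were higher in place of 45.2%, and the members split into 18 higher and 14 lower.

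**Figure D3:**
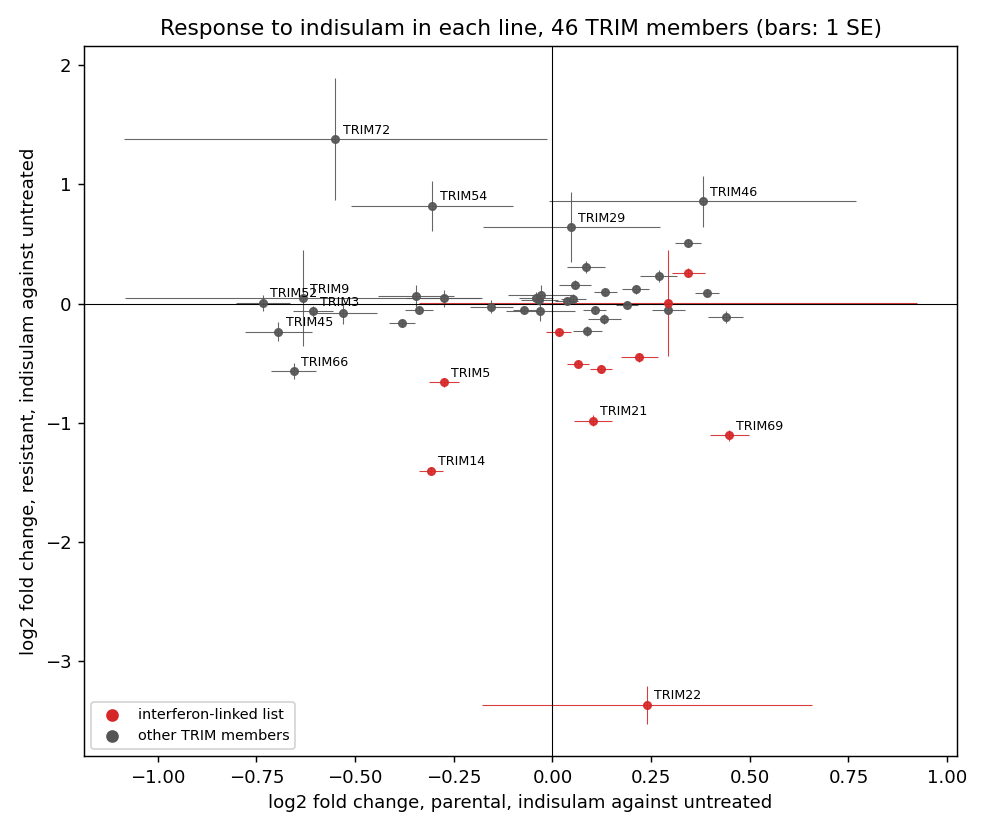
Log2 fold change of 46 members with indisulam against untreated in parental cells (x axis) and in resistant cells (y axis), with bars of 1 SE. Interferon-linked members (red) other than TRIM6 and TRIM34 lie below 0 on the y axis, down to −3.37 for TRIM22, while TRIM52, TRIM3 and TRIM45 lie between −0.61 and −0.73 on the x axis.

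Off the drug, the lines differed in 32 members, 22 higher and 10 lower in resistant cells. That is 69.6% of those tested, against 60.1% of all genes, of which 30.3% were called higher and 29.9% lower. All 11 interferon-linked members were higher in resistant cells, with a median log2 fold change of 0.86 beside 0.12 over all members and −0.02 over all genes. TRIM22 and TRIM34 passed the low-count filter through resistant libraries, so their direction in this count is partly set by the filter. As said above, the resistant untreated libraries compared here also enter the resistant response. TRIM22 was higher by 5.35 (SE 0.19, adjusted p = 3.39e-17), TRIM38 by 1.84 (SE 0.04), TRIM34 by 1.47 (SE 0.53), TRIM21 by 1.43 (SE 0.04), TRIM69 by 1.37 (SE 0.05), TRIM14 by 0.86 (SE 0.03) and TRIM25 by 0.79 (SE 0.03). TRIM38, which limits signalling downstream of Toll-like receptors, was at 12.2 and 12.5 CPM in parental untreated and at 43.6 and 45 CPM in resistant untreated libraries. The smallest difference of the list was that of TRIM56, 0.18 (SE 0.03). The call of TRIM34 was lost without parental untreated replicate 1 (0.78) or resistant untreated replicate 2 (1.09), and with DESeq2 (1.51). Among the 35 others, 11 were higher and 10 lower, with a median near 0 (−0.0037).

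Markers of other cells were read beside this. The leukocyte marker CD14 was at 0.203 to 0.277 CPM in resistant untreated libraries and at 0.112 to 0.164 CPM in parental untreated libraries, and on the drug at 0.291 to 0.371 CPM in resistant and 0.0775 to 0.133 CPM in parental libraries. The defining leukocyte markers PTPRC and CD3E were at 0. The 6 ductal epithelial markers were also all higher in resistant untreated cells, with a summed level of 10800 to 10867 CPM against 6324 to 6449 CPM. Their part in the result was not tested.

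The members outside the list held the other large differences. TRIM7, a ligase that binds glycogenin, was at 3.07 and 2.84 CPM in parental untreated and 9.32 and 8.67 CPM in resistant untreated libraries, higher by 1.61 (SE 0.08, adjusted p = 9.66e-15). It was higher by 1.93 (SE 0.08) on the drug as well. The antisense gene TRIM7-AS2, with 11.2% of the reads of the pair, was lower in resistant untreated cells by 0.71 on the log2 scale. TRIM46, a microtubule protein of axons, was low throughout, with 12 and 13 reads in parental untreated and 29 and 32 reads in resistant untreated libraries, and was higher by 1.91 (SE 0.31). TRIM16 was higher by 0.71 (SE 0.04) off and by 0.81 (SE 0.04) on the drug. It has a near copy, TRIM16L, so its reads are uncertain to that extent. TRIM59 was lower by 0.75 on the log2 scale (SE 0.03), and SMC4 on the other strand by 0.40. TRIM32 was at 35.2 CPM in both parental untreated and at 22.7 and 21.3 CPM in resistant untreated libraries, lower by 0.68 on the log2 scale (SE 0.04). TRIM32 is an NHL ligase whose loss causes a limb-girdle muscular dystrophy. TRIM4, lower by 0.43 (SE 0.05), and TRIM66, lower by 0.39 (SE 0.06), followed.

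On the drug, the lines differed in 40 members, 87% of those tested, 22 higher and 18 lower in resistant cells. The background was high too, at 69.5% of all genes (34.6% higher and 34.9% lower). Library totals alone gave 25 higher and 11 lower, with 59.7% of all calls higher in place of 49.8%. Of the interferon-linked members 7 were higher and 3 lower (TRIM14, TRIM56 and TRIM69), and TRIM34 did not pass. The list's median was 0.33. TRIM22 was still higher by 1.75 (SE 0.32, adjusted p = 4.47e-05) and TRIM38 by 1.17 (SE 0.04), at 32.1 and 32.6 CPM against 14.7 and 14.1 CPM. TRIM21 was higher by 0.35 (SE 0.05) and TRIM25 by 0.11 (SE 0.03). TRIM14 was lower by 0.23 on the log2 scale (SE 0.03), TRIM56 by 0.39 (SE 0.03) and TRIM69 by 0.18 (SE 0.05). The call of TRIM69 did not pass with library totals alone, among genes of a mean CPM of at least 1, or without parental indisulam replicate 2 (adjusted p = 0.1, 0.0695 and 0.153).

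TRIM3 was higher on the drug by 0.83 (SE 0.05), at 18.6 and 18 CPM in resistant against 10.3 CPM in both parental libraries. TRIM32 was lower by 0.99 (SE 0.04), at 19 and 18.6 CPM against 37.3 and 37.4 CPM, the largest fall among members of at least 1 CPM. TRIM59 was lower by 0.59 (SE 0.03), TRIM13 by 0.40 (SE 0.05) and TRIM68 by 0.39 (SE 0.04). TRIM44 was called lower by 0.07 (SE 0.03), and this sign turned to 0.013 with library totals alone.

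**Figure D4:**
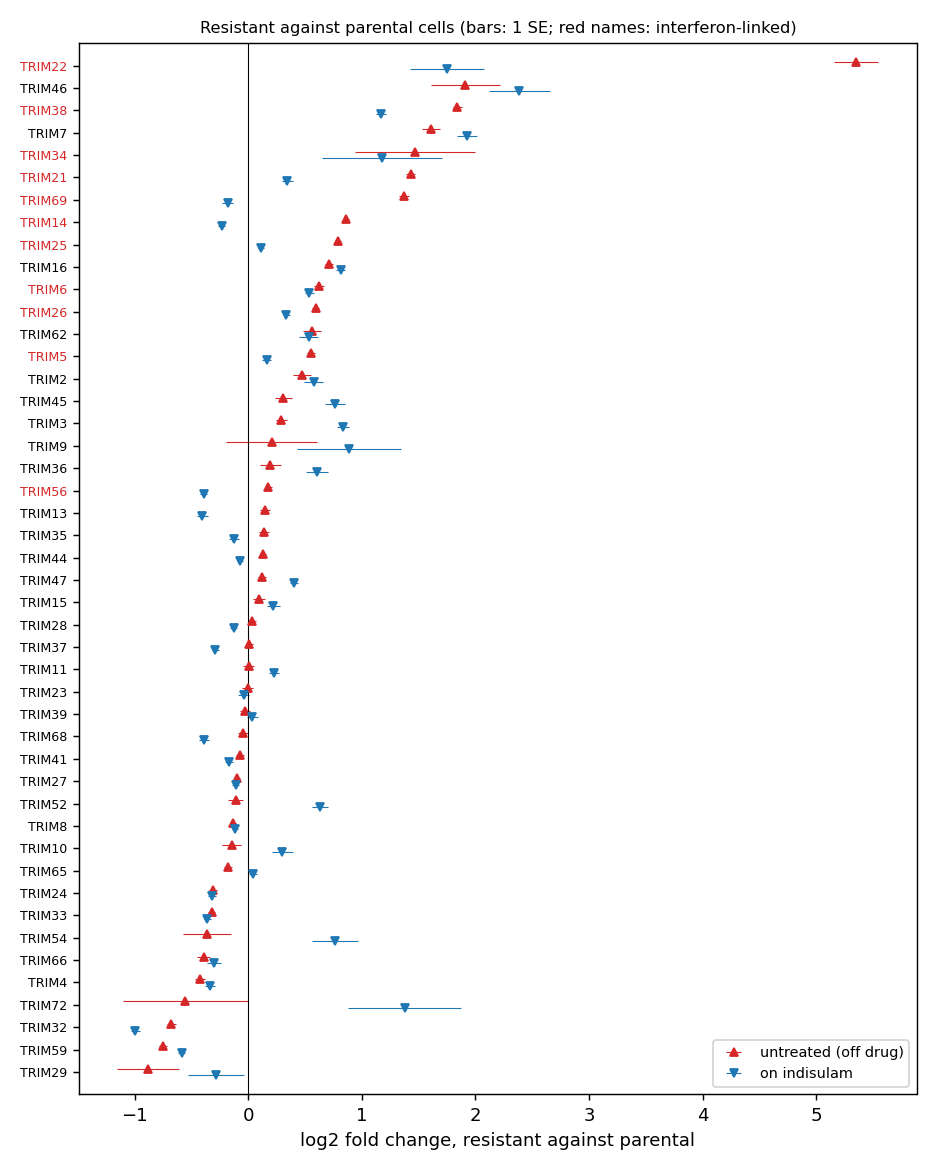
Log2 fold change of resistant against parental cells for the 46 members tested, off the drug (red triangles) and on it (blue triangles), with bars of 1 SE, ordered by the difference off the drug. TRIM22 falls from 5.35 to 1.75, TRIM14 and TRIM69 pass from above to below 0, and TRIM7 stays high at 1.61 and 1.93.

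The members with a PHD finger and bromodomain, TRIM24, TRIM28, TRIM33 and TRIM66, act on chromatin. In resistant cells 3 of the 4 were lower off the drug and all 4 on it, where 29.9% and 34.9% of all genes were called lower. TRIM33 went from 197 and 204 CPM in parental untreated to 158 and 162 CPM in resistant untreated libraries, lower by 0.32 on the log2 scale (SE 0.03), and was lower by 0.36 on the drug. TRIM24, a coactivator of nuclear receptors, was lower by 0.31 and 0.32 (SE 0.03 each). TRIM28 was lower on the drug by 0.13 (SE 0.03), a call that did not pass with library totals alone, among genes of a mean CPM of at least 1 or without parental indisulam replicate 1. In the parental line TRIM33 rose by 0.13 and TRIM28 by 0.11, while TRIM66 fell in both lines as given above. This call of TRIM28 was lost with library totals alone, among genes of a mean CPM of at least 1 and among protein-coding genes (edgeR, adjusted p = 0.23, 0.136 and 0.122). It was also lost without parental untreated replicate 2 (log2 fold change 0.096) or parental indisulam replicate 1 (0.064). The genes that work with TRIM28 in silencing (11 of 11 tested, among them SETDB1, the CBX proteins of heterochromatin and the HUSH complex) were called higher in 2 and lower in 6 off the drug, and higher in 3 and lower in 5 on it. With the drug they were higher in 6 and lower in 2 in parental cells and higher in 4 and lower in 2 in resistant cells, and the responses differed in 3 upward and 3 downward. Over all genes 30.3% were higher in resistant cells off the drug and 34.6% on it. With the drug 31.6% rose and 26.6% fell in parental cells, and 24.9% and 25.8% in resistant cells. The responses of 22.7% differed upward and of 27.5% downward. CHD3, a nucleosome remodeller, led these 11 genes in resistant against parental cells with 0.80 (SE 0.03) off and 0.95 (SE 0.03) on the drug. TASOR, of the HUSH complex, fell by 0.36 in parental and by 0.23 in resistant cells with the drug.

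Of the 4 NHL members, TRIM2, TRIM3 and TRIM32 were tested and TRIM71 was not. TRIM2, a ligase of neurons, was at 4.5 and 4.74 CPM in untreated parental, 4.86 and 4.21 CPM in treated parental, 6.44 and 6.38 CPM in untreated resistant and 6.59 and 6.88 CPM in treated resistant libraries. It was higher in resistant cells by 0.47 (SE 0.08) off and by 0.58 (SE 0.08) on the drug, and neither line changed it past the test with treatment. The resistant line held more TRIM2 and TRIM3 and less TRIM32 in both states. TRIM32 fell by 0.23 (SE 0.04) in resistant cells with the drug.

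Other domain classes gave mixed counts. Members with a COS box, which bind microtubules (4 of 8 tested, TRIM9, TRIM36, TRIM46 and TRIM54), were higher in resistant cells in 1 off the drug and in 3 on it, with none lower. Over all genes 30.3% were higher and 29.9% lower off the drug, and 34.6% and 34.9% on it. TRIM54, a sarcomere ligase, had 31 and 33 reads in untreated resistant and 59 and 74 reads in treated resistant libraries, and rose by 0.82 (SE 0.21). It overlaps UCN, with 34.9% of the reads of the pair. Those with other C-terminal parts (TRIM13, TRIM23, TRIM37, TRIM45 and TRIM59) rose in 4 and fell in 1 in parental cells with the drug. Those without a known C-terminal domain rose in 1 and fell in 2 of 5 in the same comparison, where 31.6% of all genes rose and 26.6% fell. The 25 PRY-SPRY members tested were higher in 15 and lower in 3 off the drug, beside 30.3% and 29.9% of all genes, and 10 of the 15 that were higher are interferon-linked members already counted. TRIM72, a membrane repair protein of muscle, had 2 to 17 reads per library, and its rise of 1.38 in resistant cells (SE 0.51) was lost when any library of that line was left out. It passed the low-count filter only through the resistant indisulam libraries.

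Genes built like TRIM proteins under other names were read too. PML, the scaffold of nuclear bodies and itself interferon-induced, was at 30.9 and 31.2 CPM in untreated parental, 30.2 and 26.7 CPM in treated parental, 78.3 and 84.7 CPM in untreated resistant and 44.8 and 43.1 CPM in treated resistant libraries. It was higher in resistant cells off the drug by 1.39 (SE 0.05), fell there with it by 0.89 (SE 0.05), and its responses differed by −0.77 (SE 0.07). BSPRY, which lacks the RING, was lower in resistant cells by 1.56 on the log2 scale (SE 0.03) off and by 1.06 (SE 0.03) on the drug. MID2, a ligase bound to microtubules, had 21 and 22 reads in untreated parental, 18 and 12 reads in treated parental, 0 and 0 reads in untreated resistant and 0 and 3 reads in treated resistant libraries. TRIML2 had 0 or 1 read in each parental library and 7 to 12 reads in each resistant one. MID2 passed the low-count filter only through parental and TRIML2 only through resistant libraries, so their directions between the lines are partly set by it. Of the 8 genes 6 were tested, and off the drug 2 were higher and 2 lower, on it 3 and 2. With the drug 1 was higher and none lower in parental cells, 3 were higher and 1 lower in resistant cells, and 2 responses were higher and 1 lower in the resistant line. Over all genes 30.3% were higher and 29.9% lower in resistant cells off the drug, and 34.6% and 34.9% on it. With the drug 31.6% rose and 26.6% fell in parental cells, and 24.9% and 25.8% in resistant cells. Responses were higher in the resistant line for 22.7% and lower for 27.5%.

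A list of ubiquitin-conjugating enzymes and their variants was read too (13 of 13 tested). It holds UBE2L3 and the variants UBE2V1 and UBE2V2, and was not limited to partners of RING ligases. With the drug 10 rose and 1 fell in parental cells, and 3 rose and 3 fell in resistant cells. Of all genes, 31.6% rose and 26.6% fell in parental cells, and 24.9% and 25.8% in resistant cells. UBE2W, which starts chains on protein N-termini, rose by 0.29 (SE 0.03) and UBE2D3, the broad partner of RING ligases, by 0.28 (SE 0.03) in parental cells. The responses differed in 1 upward and 7 downward, beside 22.7% and 27.5% of all genes, led by UBE2W (−0.36, SE 0.05). Off the drug 3 were higher and 3 lower in resistant cells, beside 30.3% and 29.9% of all genes. On it 2 were higher and 7 lower, beside 34.6% and 34.9%. UBE2K was lower in resistant cells by 0.33 on the log2 scale (SE 0.03) off and by 0.67 (SE 0.03) on the drug.

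The neighbours TRIM6, TRIM34, TRIM5 and TRIM22 lie between 5596109 and 5938619 on chromosome 11 (GRCh38). In resistant cells on the drug TRIM22 and TRIM5 fell, TRIM6 rose and TRIM34 did not pass. Chromosome 6 held 7 members, TRIM38, TRIM27, TRIM31, TRIM10, TRIM15, TRIM26 and TRIM39. Off the drug, TRIM38 and TRIM26 were higher in resistant cells, TRIM27 was lower by 0.10 (SE 0.03, a call lost without parental untreated replicate 2, edgeR adjusted p = 0.0689), TRIM10, TRIM15 and TRIM39 did not pass and TRIM31 was not tested. TRIM39 overlaps exons of the noncoding RNA HCG18, with 78.1% of the reads of both genes, and of a readthrough gene listed at 0, so its count may be partial.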

How the data were processed

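Polyadenylated RNA was sequenced by the study as 8 stranded libraries. The authors trimmed paired reads with SeqPurge, aligned them with HISAT2 2.2.1 to GRCh38 and, per the processing notes, used Picard and HTSeq. Strand setting and annotation release are not given in the sources used here. The authors deposited raw read counts per gene, with 60675 genes and 9 lines of unassigned reads (duplicates, ambiguous and low-quality alignments among them), which stayed out of all totals. Those unassigned lines held duplicates at 14.1 to 18.4%, ambiguous reads at 3.9 to 4.58% and low-quality alignments at 7.55 to 8.25% of listed reads. GENCODE 44 matched 60419 genes.

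The test was that of edgeR 4.0.16 under R 4.3.3 (filterByExpr, TMM, robust quasi-likelihood fit of 4 group means over all 8 libraries, 4 residual degrees of freedom), leaving 16661 genes. Calls had a Benjamini-Hochberg adjusted p under 0.05 over all of them, and an SE is the log2 fold change divided by the square root of F. An exact permutation test of 2 libraries against 2 cannot go under p = 0.333, so none was made. CPM used TMM-scaled totals. The scripts were tested on simulated data. The members and all gene lists and motifs were chosen with earlier results of these data known. Genes named are all interferon-linked, PHD-bromodomain and NHL members, the 5 largest called rises and falls of at least 1 CPM in each comparison, the 5 highest per kb, the members at the edge of the read rule, and the 3 largest changes of other lists. Members of lower level, the flanking genes on the other strand and some class members were named after their values were seen. Alternatives were other scalings, filters and gene sets, DESeq2 1.42.0, a replicate block and each library left out. Replicates of 1 group correlated at r = 0.996 to 0.998 over genes (log2 CPM) and differed beyond counting noise (mean chi-square per gene 1.65 to 4.22), so no library was a copy of another.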

Additional observations from a re-analysis of the deposited data

Results flagged for a closer look

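Responses to the drug were unequal in the parental and resistant lines by the test of the difference itself (edgeR quasi-likelihood, adjusted p under 0.05) in 28 members, and each value here is the response of the resistant line minus that of the parental line on the log2 scale. The response was lower in the resistant line for TRIM22 (−3.60), TRIM69 (−1.55), TRIM14 (−1.09), TRIM21 (−1.08), TRIM25 (−0.67), TRIM38 (−0.67), TRIM56 (−0.57), TRIM13 (−0.55), TRIM5 (−0.39), TRIM68 (−0.34), TRIM32 (−0.32), TRIM37 (−0.30), TRIM35 (−0.26), TRIM26 (−0.26), TRIM44 (−0.20) and TRIM28 (−0.16). It was higher in the resistant line for TRIM72 (1.93), TRIM54 (1.12), TRIM52 (0.74), TRIM3 (0.54), TRIM45 (0.46), TRIM10 (0.45), TRIM36 (0.41), TRIM7 (0.32), TRIM47 (0.28), TRIM65 (0.22), TRIM11 (0.22) and TRIM59 (0.17). The exposure differed between the lines as well, being 18 h in parental and continuous in resistant cells, so line and length of exposure cannot be told apart. The value of TRIM72 rests on 2 to 17 reads per library, and its call was lost without any 1 of 7 of the 8 libraries (adjusted p = 0.0545 to 0.185), all but parental indisulam replicate 2. TRIM72 also passed the low-count filter only through the resistant indisulam libraries, where it is high. The calls of TRIM28 and TRIM44 were lost with library totals alone (adjusted p = 0.33 and 0.062), and that of TRIM28 also among genes of a mean CPM of at least 1, among protein-coding genes and without resistant indisulam replicate 2 (0.114, 0.0526 and 0.0553). Those of TRIM36 and TRIM7 were lost with DESeq2 (0.0788 and 0.123) and without parental indisulam replicate 2 or resistant untreated replicate 2 (0.0589 and 0.0609 for TRIM36, 0.114 and 0.0605 for TRIM7). That of TRIM7 was also lost without parental untreated replicate 1 or resistant indisulam replicate 1 (0.139 and 0.0731), and that of TRIM11 without parental untreated replicate 1 (0.0623). TRIM14, TRIM25, TRIM13, TRIM59, TRIM52, TRIM7 and TRIM54 overlap exons of a gene on the opposite strand that held 10.9 to 89.6% of the reads of the pair. TRIM47, TRIM37, TRIM38 and TRIM11 overlap such genes too, with at most 1.74% of the reads of the pair in them. With 2 libraries a group no library could be tested for standing apart from its group.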

How the results depend on the processing

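For the members, every comparison was recomputed under 7 other settings and with each library left out. Calls of the genes of other lists and of the overlapping neighbours were not checked in this way. The number of members called stayed within 1.5 times of that reported in all of them. Without 1 library it ranged from 24 to 27 for the parental response, from 20 to 25 for the resistant response, from 28 to 33 for the lines off the drug, from 36 to 41 for the lines on it and from 25 to 29 for the difference of responses. Of 153 called fold changes, 119 kept their call under every setting that tested them and 34 lost it in at least 1, of which 15 with library totals alone. With the replicate block 1 call was lost, that of TRIM32 in the parental response (0.09), and the members called were 27, 25, 32, 40 and 28 in the 5 comparisons in the order above. Replicate numbers did not pair the libraries (correlations of deviations −0.058 to 0.0272). A sign turned for TRIM44 between the lines on the drug, from −0.07 to 0.013 with library totals alone and to 0.0046 among genes of a mean CPM of at least 1, and for the uncalled parental change of TRIM22, which ranged from −0.31 (without parental indisulam replicate 1) to 0.62 with 1 library left out. The cause was not tested. Few reads lie behind the values of TRIM34, TRIM72, TRIM9, TRIM31, TRIM63 and TRIM74 (15 to 96 over all libraries) and behind TRIM22 in parental cells (7 to 13 per library).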
